A study of Rattus norvegicus with 4 samples.

Results

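Aqp1, Slc29a1, Slc6a4 and P2ry6 encode proteins of the cell surface that handle water, nucleosides, serotonin and extracellular nucleotides, and their messenger RNA was measured in rat mesenchymal stem cells from femurs in osteogenic induction medium. The 4 genes were chosen by their measured counts, as membrane genes with a large difference between at least 1 pair of libraries, with no numeric limit stated for that size, so that a list of genes just inside or outside it cannot be given. All 4 were found by symbol among 34034 listed genes (Entrez identifiers 25240 for Aqp1, 63997 for Slc29a1, 25553 for Slc6a4 and 117264 for P2ry6). They were also among the 12228 genes that reached 40 counts in total and were compared. Because the differences between libraries chose the genes, their levels and ratios below are a description and carry no test.

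Each of 4 conditions had 1 library, taken on day 1 after 24 h of treatment. The conditions were senescent cells given trichostatin A (TSA) and phenamil, senescent cells given TSA, senescent cells given vehicle (senescent control), and young cells given vehicle (young control). Sample titles word the treatments as 'TSA extracs treat' and 'TSA and phenamil extracs treat', while those of the controls name no extract. Any part of an extract in the differences was not tested. TSA inhibits histone deacetylases, and phenamil is an amiloride derivative that blocks epithelial sodium channels. Phenamil without TSA was not among the conditions analysed. The second agent is phenamil in the labels, which were followed, but benzyl ether in the text on the series' design. Neither source states doses, strain, age, the number of animals or how the cells became senescent, and all 4 libraries carry the same batch label. Total counts ran from 9873894 in the TSA library to 11024227 in the senescent control, so that a count of 0 allows up to 3 counts, or 0.270 to 0.302 CPM, which here means counts over a library size corrected by TMM, the trimmed mean of M-values method of edgeR. All 10 stromal markers had enough counts to compare, at levels far apart: the collagen gene Col1a1 stood at 26684 to 33576 CPM and the surface marker Thy1 at 754 to 803 CPM, whereas Eng had 18 to 23 counts and Vcam1 9 to 23 counts per library. Pdgfrb, a growth factor receptor of these cells, was lowest in the TSA library, at 0.663 (95% counting interval 0.566 to 0.776) of the senescent control, and its part in the results was not tested. The markers went both ways in TSA over senescent control. Intervals lay above no change for 3 of the 10 and below it for 4, beside 15.7% and 14.7% of all compared genes. The endothelial marker Pecam1, the leukocyte marker Itgam and the platelet gene Pf4 had 0 counts in all 4, but some other genes of their marker lists did not. Cd14 of the macrophage list had 57 to 85 counts per library and Cd68 0 to 9, and the platelet gene Itga2b had 3 to 12.

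Aqp1 encodes the water channel aquaporin-1, a pore that lets water follow osmotic gradients across the membrane and is abundant in red cells, kidney tubules and capillary endothelium. Slc29a1 encodes an equilibrative nucleoside transporter that carries adenosine and other nucleosides in either direction, and Slc6a4 encodes the serotonin transporter, which is driven by sodium and chloride and is the target of a class of antidepressants. P2ry6 encodes a receptor for extracellular UDP that signals through Gq and calcium. Extracellular nucleotides, adenosine and serotonin all act on bone cells through such receptors, and the transporters limit how long adenosine and serotonin stay outside the cell.

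The proximal promoters of Aqp1 and Slc29a1 are shown because no window was on hand for Slc6a4 or P2ry6. RefSeq windows from 250 bases before to 50 after the gene start, on build GRCr8, were on hand for 2 of the 4 genes. The Aqp1 window is chr4:85812534-85812833 and the Slc29a1 window is chr9:22896849-22897148, both on the plus strand. Capitals mark matches to the GC box GGGCGG and the TATA box TATAAA.
Aqp1: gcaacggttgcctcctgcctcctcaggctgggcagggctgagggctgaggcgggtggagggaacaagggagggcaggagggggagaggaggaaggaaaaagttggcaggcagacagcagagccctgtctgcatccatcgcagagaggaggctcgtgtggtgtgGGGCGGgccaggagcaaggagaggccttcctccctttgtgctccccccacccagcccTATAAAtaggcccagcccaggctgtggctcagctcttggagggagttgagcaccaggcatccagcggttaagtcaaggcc
Slc29a1: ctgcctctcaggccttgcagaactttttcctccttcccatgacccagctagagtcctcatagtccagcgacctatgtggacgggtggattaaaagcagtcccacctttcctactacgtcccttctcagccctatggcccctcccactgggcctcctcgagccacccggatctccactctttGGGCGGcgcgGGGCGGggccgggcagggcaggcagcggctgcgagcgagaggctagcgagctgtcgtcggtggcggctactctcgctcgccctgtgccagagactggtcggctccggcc

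In the Aqp1 window, GGGCGG began 87 bases before the gene start and TATAAA 30 bases before it. In the Slc29a1 window GGGCGG occurred at 2 places, 69 and 59 bases before the start, and TATAAA did not occur. The search covered both strands and found GGGCGG in 34.9% and TATAAA in 14.3% of 27457 windows of the same length. Also searched were CCAAT, in 37.7% of windows, ACGTG (the core of the hypoxia response element) in 19.7%, TGANTCA (AP-1) in 7.33%, TGACGTCA (the cyclic AMP response element) in 1.91% and GTCTAGAC (a Smad element) in 0.215%, and neither window held one. The matched places overlapped no other motif. GC content was 64% for Aqp1 and 65% for Slc29a1, above 80.8% and 82.9% of all windows, and the windows held 6 and 21 CpG sites against a median of 7. These matches describe letters in these windows and show no binding.

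Aqp1 had the widest spread of the 4 genes. It had 311 counts (29.6 CPM) in the TSA plus phenamil library, 1194 counts (120 CPM) in the TSA library, 888 counts (80.6 CPM) in the senescent control and 365 counts (32.9 CPM) in the young control. The TSA library was the highest and the TSA plus phenamil library the lowest, close to the young control. Of 10830 genes with at least 100 counts, 9 had a wider spread of log2 CPM over the 4 libraries.

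Slc29a1 had 256 counts (24.4 CPM) with TSA plus phenamil, 563 counts (56.8 CPM) with TSA, 470 counts (42.7 CPM) in the senescent control and 329 counts (29.7 CPM) in the young control. The order of the libraries was that of Aqp1, within a narrower range. A wider spread was found in 320 of the 10830 genes.

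Slc6a4 was counted 46 times (4.38 CPM) with TSA plus phenamil, 170 times (17.1 CPM) with TSA, 107 times (9.72 CPM) in the senescent control and 77 times (6.94 CPM) in the young control. The order was again TSA, senescent control, young control, TSA plus phenamil from high to low, and 38 genes had a wider spread. One long non-coding gene overlaps Slc6a4 in the reference annotation, and whether counting used strand is not stated, so reads of the pair could not be told apart; no gene overlaps the other 3.

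P2ry6 had 91 counts (8.67 CPM) with TSA plus phenamil, 39 counts (3.93 CPM) with TSA, 109 counts (9.90 CPM) in the senescent control and 75 counts (6.76 CPM) in the young control. Here the TSA library was the lowest, where for the transporters and the channel it was the highest. In spread, 227 genes exceeded it. As these are bulk samples, fewer cells of a type and less RNA per cell cannot be told apart for any of the genes.

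**Figure D1:**
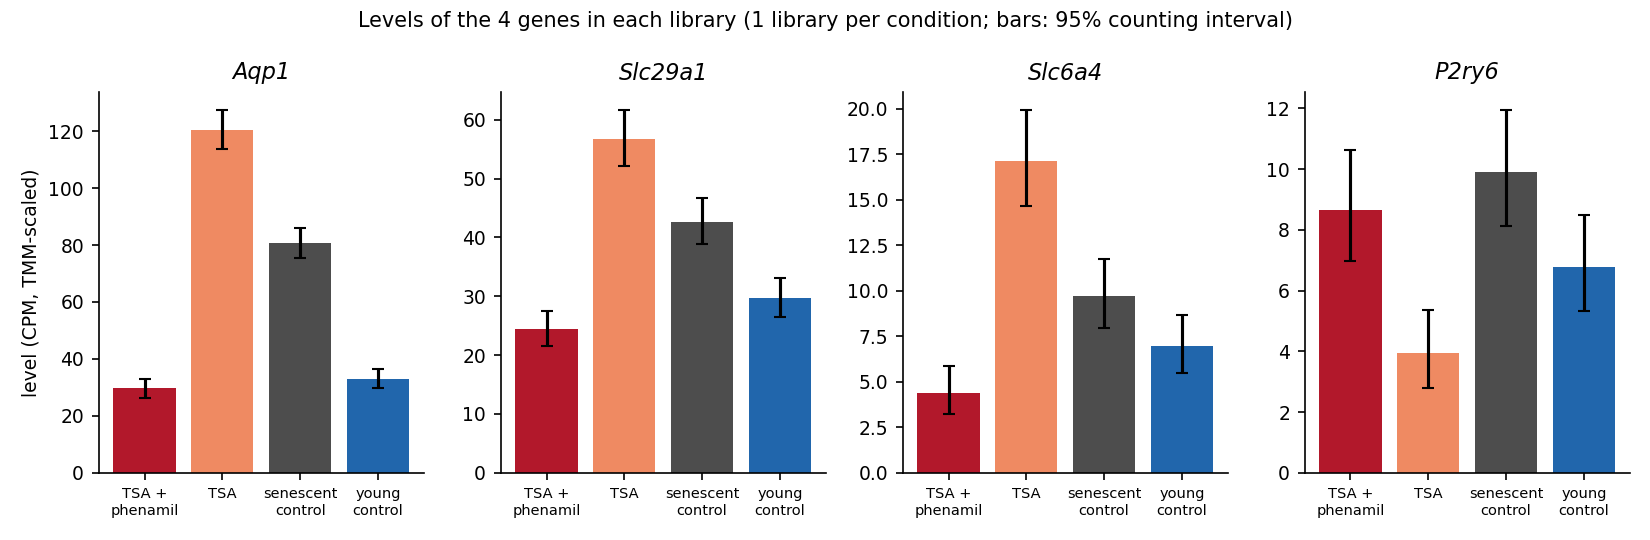
Levels of Aqp1, Slc29a1, Slc6a4 and P2ry6 (vertical axis, CPM from 0, a scale of its own per gene) in the 4 libraries, 1 bar per library, with 95% Poisson counting intervals. For 3 genes the TSA bar is the tallest and the TSA plus phenamil bar the shortest, as for Aqp1 with 120 and 29.6 CPM, whereas for P2ry6 the TSA bar is the shortest at 3.93 CPM.

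Ratios between 2 libraries are given with exact conditional 95% counting intervals in parentheses. These cover counting error only: with 1 library per condition there was no replicate spread, so a ratio describes 2 libraries and not the conditions, and no p-value can be given. Past 2-fold means that all of the interval was more than 2-fold from no change, and higher or lower that all of it was above or below no change. Several of the 6 pairs share a library, and values of such pairs are not independent of each other.

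The first pair asked what set senescent cells apart from young cells without treatment. Aqp1 stood at 2.45 (2.17 to 2.78) times the young level, Slc29a1 at 1.44 (1.25 to 1.66), Slc6a4 at 1.399 (1.03 to 1.90) and P2ry6 at 1.46 (1.08 to 1.99). All 4 were higher, a direction that 18.1% of all compared genes had, while 16.7% were lower. Aqp1 alone was past 2-fold, as were 0.27% of all genes, and 150 genes had a higher ratio than Aqp1. The lower bounds for Slc6a4 and P2ry6 lay close to no change, both resting on 75 to 109 counts in these libraries.

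TSA against the senescent control separated P2ry6 from the rest. Slc6a4 stood at 1.76 (1.38 to 2.27), Aqp1 at 1.49 (1.37 to 1.63) and Slc29a1 at 1.33 (1.18 to 1.51), whereas P2ry6 stood at 0.397 (0.268 to 0.578). So 3 of the 4 genes were higher, against 15.7% of all genes, and 1 was lower, against 14.7%. None was past 2-fold, as 0.164% of all genes were, and 131 genes had a lower ratio than P2ry6.

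With both compounds against the senescent control, the channel and the transporters were lower. Aqp1 stood at 0.367 (0.322 to 0.419), Slc6a4 at 0.451 (0.312 to 0.643) and Slc29a1 at 0.571 (0.489 to 0.667). P2ry6 stood at 0.876 (0.656 to 1.17), an interval that included no change. The 3 lower genes compare with 15.9% of all genes in that direction and 15.8% in the other, and Aqp1 was past 2-fold, as were 0.164% of all genes.

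The TSA plus phenamil library against the TSA library, the pair that by the labels differs by phenamil, held the widest ratios of Aqp1, Slc6a4 and Slc29a1 among the 6 pairs. Aqp1 stood at 0.246 (0.217 to 0.279), Slc6a4 at 0.256 (0.180 to 0.356) and Slc29a1 at 0.430 (0.369 to 0.499), all past 2-fold, as were 0.409% of all genes. The intervals of Aqp1 and Slc6a4 overlapped, and that of Slc29a1 lay above both. P2ry6 ran the other way at 2.20 (1.499 to 3.30), higher without passing 2-fold. Over all genes 16.6% were higher and 17.1% lower; 27 genes had a lower ratio than Aqp1, 29 a lower one than Slc6a4 and 205 a higher one than P2ry6. This pair can differ through either library, because each condition had 1 library. No library held phenamil without TSA, so a part of phenamil by itself cannot be told apart from one that depends on TSA.

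Set against the young control, the TSA library held 3.66 (3.25 to 4.12) times the Aqp1 level, 2.47 (1.88 to 3.28) times that of Slc6a4, 1.91 (1.67 to 2.20) times that of Slc29a1 and 0.582 (0.384 to 0.867) times that of P2ry6. Higher were 3 of the 4, against 20.9% of all genes, and P2ry6 was lower, as were 20.4%. Only Aqp1 was past 2-fold, where 0.711% of all genes were.

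In the last pair, TSA plus phenamil against young control, the ratios of Aqp1 and Slc29a1 lay nearer to no change than in any other pair, which was not so for Slc6a4 and P2ry6. Aqp1 stood at 0.900 (0.771 to 1.05) and P2ry6 at 1.28 (0.934 to 1.76), both with intervals that included no change. Slc29a1 at 0.822 (0.695 to 0.971) and Slc6a4 at 0.631 (0.428 to 0.921) were lower. Lower genes made up 15.7% and higher genes 16.1% of all genes, and none of the 4 was past 2-fold, where 0.229% were. In the order of levels, neighbours whose intervals included no change were thus young control and TSA plus phenamil for Aqp1, and for P2ry6 senescent control and TSA plus phenamil as well as TSA plus phenamil and young control. For Slc29a1 and Slc6a4 the counting interval of every neighbouring step excluded no change.

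**Figure D2:**
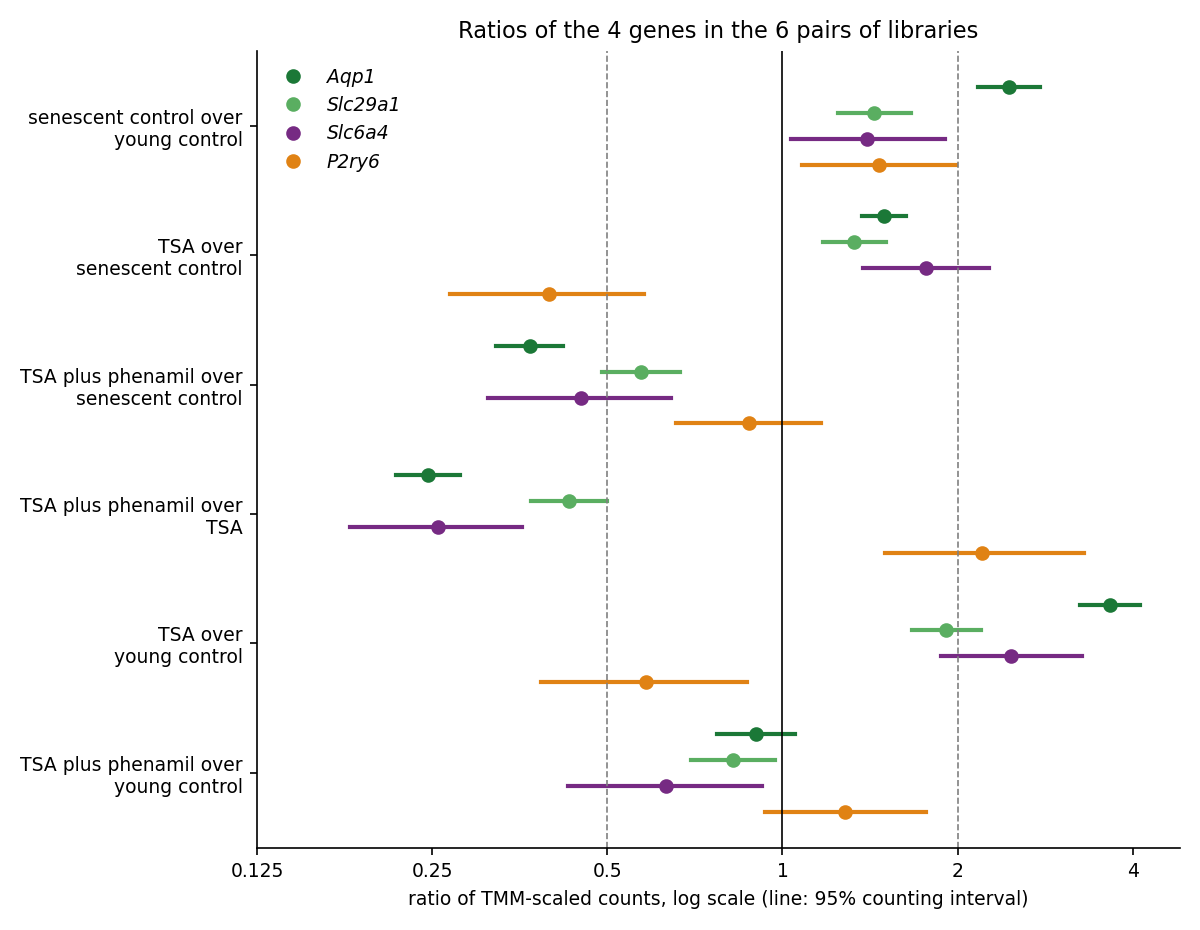
Ratio of scaled counts (horizontal log axis) for the 4 genes in each of the 6 pairs of libraries, with 95% counting intervals as lines, no change as a solid line and 2-fold as dashed lines. In the pair TSA plus phenamil over TSA, Aqp1 at 0.246, Slc6a4 at 0.256 and Slc29a1 at 0.430 lie left of the 2-fold line and P2ry6 lies to the right at 2.20.

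The order TSA, senescent control, young control, TSA plus phenamil from high to low was held by 596 of 12228 genes (4.87%). In 15 genes (0.123%), Slc29a1 and Slc6a4 among them, the counting interval of every step also excluded no change. The order of P2ry6 was held by 389 genes (3.18%). Likeness of pattern was measured as the distance between profiles of log2 CPM over the 4 libraries, each centred on its own mean, among genes with at least 100 counts. Slc29a1 and Slc6a4 were 0.52 apart, Aqp1 and Slc6a4 0.59, and Aqp1 and Slc29a1 0.80. Of the 10830 genes, 226 were nearer to Slc29a1 than Slc6a4 was, and 7 nearer to Slc6a4 than Slc29a1 was. For Aqp1 and Slc6a4, 11 genes were nearer to Aqp1 and 15 to Slc6a4. For Aqp1 and Slc29a1, 38 were nearer to Aqp1 but 2053 to Slc29a1, so that many genes were as like Slc29a1 as Aqp1 was. P2ry6 was 2.39 from Aqp1, 2.26 from Slc6a4 and 1.75 from Slc29a1.

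Nearest to Aqp1 were Krt7, a keratin of simple epithelia, at a distance of 0.32, Cox6b2, a cytochrome c oxidase subunit, at 0.37, and Serinc2 at 0.38. Krt7 had 3.62 CPM with TSA plus phenamil, 18.9 CPM with TSA, 12.98 CPM in the senescent control and 4.42 CPM in the young control. Cox6b2 and Serinc2 rest on 137 and 103 counts in all. For Slc29a1 the nearest were Zdhhc2, a protein acyltransferase, at 0.08, the unnamed gene LOC103693491 at 0.13 and the matricellular gene Smoc2 at 0.14. Smoc2 had 28.4 CPM with TSA plus phenamil, 60.6 CPM with TSA, 50.7 CPM in the senescent control and 31.9 CPM in the young control.

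Slc6a4 was nearest to Areg, an epidermal growth factor receptor ligand, at 0.24, then to Serinc2 at 0.34 and the transfer RNA gene Trnap-agg_18 at 0.40. Areg had 2.19 CPM with TSA plus phenamil, 8.27 CPM with TSA, 5.81 CPM in the senescent control and 3.52 CPM in the young control. P2ry6 was nearest to Aph1bl2 at 0.10, Tab3, an adaptor of inflammatory kinase signalling, at 0.16, and Ifih1, a sensor of double-stranded RNA, at 0.19. Ifih1 had 8.10 CPM with TSA plus phenamil, 4.34 CPM with TSA, 9.90 CPM in the senescent control and 6.40 CPM in the young control. With 4 libraries such distances are a description only.

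**Figure D3:**
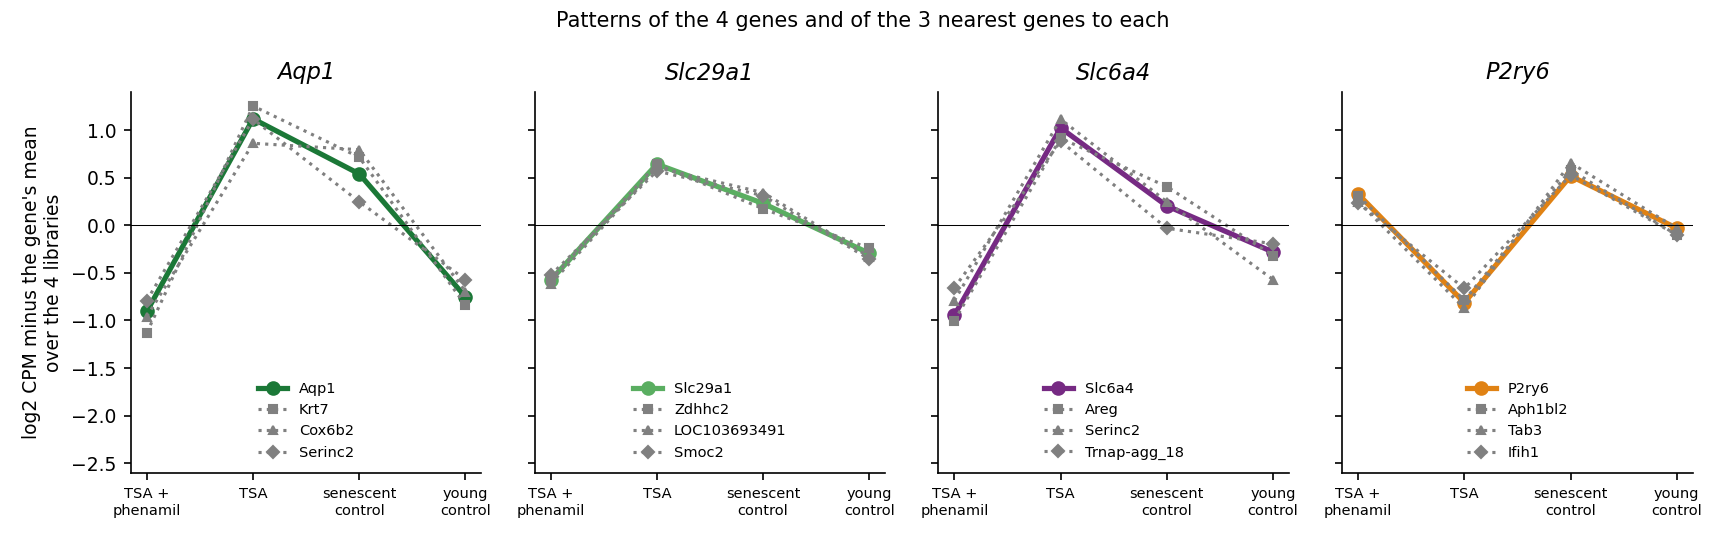
Log2 CPM minus the gene's own mean over the 4 libraries (vertical axis, no prior count added) for each of the 4 genes (coloured) and its 3 nearest genes (grey, dotted), by library. Slc29a1 and its neighbours in pattern, at distances of 0.08 to 0.14, lie almost on each other, while Aqp1 and its neighbours, at 0.32 to 0.38, are looser.

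Krt7 and Krt8, both keratins of simple epithelia, were the epithelial markers with enough counts to compare. The summed level of the 8 epithelial markers was 15.7 CPM with TSA plus phenamil, 38.9 CPM with TSA, 29.0 CPM in the senescent control and 13.97 CPM in the young control, nearly all of it from this pair of genes. The defining epithelial markers Epcam and Cdh1 had 1 and 2 counts over the 4 libraries and Krt14 had 0. Endothelial markers, which mark a cell type rich in Aqp1, summed to 4 counts with TSA plus phenamil, 4 with TSA, 0 in the senescent control and 0 in the young control. Erythroid markers summed to 2.48 CPM with TSA plus phenamil, 2.82 CPM with TSA, 1.27 CPM in the senescent control and 0.451 CPM in the young control, with the anion exchanger gene Slc4a1 at 0 counts in all. Megakaryocyte and mast cell markers, cells known for serotonin uptake or storage, summed to 7, 6, 12 and 14 counts in the same order of libraries, and 7 of these 10 genes had 0 counts throughout. Macrophage markers summed to 9.24, 9.58, 5.81 and 5.14 CPM in that order, mostly from Cd14, with Adgre1, Itgam and Aif1 at 0 counts. Neuronal markers summed to 14.6, 14.8, 11.9 and 8.84 CPM in that order, mostly from Tubb3 and Gata2, with Fev, a regulator of serotonin neurons, at 0. Syt1, a further neuronal marker, had 16 counts with TSA plus phenamil, 19 with TSA, 6 in the senescent control and 2 in the young control. Its interval lay beyond 1.5-fold in TSA over young control and in TSA plus phenamil over young control, from few counts. The part of keratin-bearing cells in the levels of Aqp1, Slc29a1 and Slc6a4 was not tested.

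By counts of 3' tags, of which a transcript gives about one whatever its length, Aqp1 led the aquaporin genes in every library. Of the 12 genes of the family 8 had 0 counts in all libraries, and Mip and Aqp7 had 2 and 1. Aqp11, an intracellular member, had 12 counts with TSA plus phenamil, 8 with TSA, 12 in the senescent control and 8 in the young control, and its interval included no change in all 6 pairs, for example 1.42 (0.533 to 3.996) for TSA plus phenamil over TSA. At that depth a 2-fold difference of Aqp11 was not detectable.

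Neither compared relative of Slc29a1 shared its order of libraries. Slc29a3, a lysosomal nucleoside transporter, had 49.0 CPM with TSA plus phenamil, 40.7 CPM with TSA, 45.1 CPM in the senescent control and 53.5 CPM in the young control. Slc29a2, a second equilibrative transporter of the surface, had 7.90, 7.26, 6.81 and 10.1 CPM in that order. In the senescent control over young control, Slc29a3 stood at 0.844 (0.748 to 0.953) and Slc29a2 at 0.674 (0.497 to 0.912), both lower where Slc29a1 was higher, and in TSA plus phenamil over TSA Slc29a3 stood at 1.204 (1.06 to 1.38), higher where Slc29a1 was lower. The sodium-driven transporters Slc28a1, Slc28a2 and Slc28a3 had 33, 11 and 1 counts in all and were not compared.

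The list of nucleoside salvage and breakdown, not all of whose enzymes act on nucleosides themselves, had 8 of 14 genes lower and 0 higher in TSA plus phenamil over TSA. Its median log2 ratio was -0.30 beside 0.001 over all compared genes, of which 17.1% were lower and 16.6% higher. In TSA over young control 7 genes of the list were higher and 0 lower, with a median of 0.36 beside 0.003, where 20.9% of all genes were higher and 20.4% lower. Aprt, which salvages adenine and had the highest counts of them, stood at 0.868 (0.825 to 0.913) in TSA plus phenamil over TSA and at 1.13 (1.08 to 1.19) in TSA over young control, smaller differences than those of Slc29a1.

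Among the 5 compared genes of the transporter family of Slc6a4, none other followed its order. Slc6a6, the taurine transporter, had 806 CPM with TSA plus phenamil, 522 CPM with TSA, 802 CPM in the senescent control and 914 CPM in the young control, so that the TSA library was the lowest. Slc6a6 stood at 0.651 (0.629 to 0.674) in TSA over senescent control and at 1.54 (1.49 to 1.60) in TSA plus phenamil over TSA, the reverse of Slc6a4. Of the family's other members in the table, 8 had 0 counts in all libraries, among them the noradrenaline and dopamine transporter genes Slc6a2 and Slc6a3. Over all 187 compared solute carrier genes, 3 were past 2-fold lower in TSA plus phenamil over TSA, namely Slc29a1, Slc6a4 and Slc16a11, which had 1 count with TSA plus phenamil and 18 with TSA. Over all compared genes 0.409% were past 2-fold in that pair, and Slc29a1 and Slc6a4 were chosen for such differences. None was past 2-fold higher in that pair, and the family's median log2 ratio was -0.02.

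Both tryptophan hydroxylase genes, Tph1 and Tph2, whose enzymes open serotonin synthesis, and the vesicular transporter genes Slc18a1 and Slc18a2 had 0 counts in all libraries. Ddc, whose enzyme completes the synthesis, had 1 count with TSA plus phenamil, 3 with TSA, 2 in the senescent control and 0 in the young control. Maoa, which breaks serotonin down, had 12.3 CPM with TSA plus phenamil, 14.3 CPM with TSA, 12.2 CPM in the senescent control and 8.56 CPM in the young control. Its highest library was also the TSA library, yet Maoa stood at 0.858 (0.671 to 1.10) in TSA plus phenamil over TSA, an interval that included no change. Of 14 serotonin receptor genes 9 had 0 counts, and Htr2a and Htr1b had enough to compare. Htr2a, a receptor coupled to Gq, had 4.38 CPM with TSA plus phenamil, 7.06 CPM with TSA, 7.08 CPM in the senescent control and 4.96 CPM in the young control, and it was lower in TSA plus phenamil over TSA at 0.621 (0.418 to 0.913). Htr1b had intervals that included no change in all 6 pairs.

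P2ry6 was 1 of 3 compared P2Y receptor genes. P2ry2, a receptor for UTP and ATP, led them by counts, with 25.4 CPM with TSA plus phenamil, 30.2 CPM with TSA, 25.9 CPM in the senescent control and 31.6 CPM in the young control. P2ry2 stood at 1.17 (0.991 to 1.38) in TSA over senescent control. P2ry4 had 8.10, 6.05, 7.08 and 5.50 CPM in that order and stood at 0.854 (0.600 to 1.21) in the same pair. The interval of P2ry6 in this pair, 0.268 to 0.578, overlapped with neither. P2ry6 was chosen for a large difference in at least 1 pair, so this is a description and no test of a difference from its relatives. P2ry1, P2ry10, P2ry12 and P2ry13 had 0 counts in all libraries and P2ry14 had 2.

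Of the ATP-gated channels, P2rx4 was the most abundant by counts, and its intervals included no change in all 6 pairs, with 27.3 CPM with TSA plus phenamil, 27.0 CPM with TSA, 26.3 CPM in the senescent control and 28.5 CPM in the young control. Named after their values were seen, the other 3 compared channel genes each had an interval away from no change in at least 1 pair. Over all compared genes, 15.7% to 20.9% were higher and 14.7% to 20.4% lower in each single pair. The share of all genes with such an interval in at least 1 pair was not counted. P2rx7 had 6 counts with TSA plus phenamil, 18 with TSA, 19 in the senescent control and 12 in the young control, which by CPM is the order of Aqp1, and it was lower at 0.315 (0.102 to 0.828) in TSA plus phenamil over TSA. P2rx5 was higher at 2.14 (1.41 to 3.30) in TSA over young control. P2rx3 was lower at 0.370 (0.133 to 0.904) in TSA over senescent control, with 7 counts with TSA and 21 in the senescent control. Adenosine receptor genes were near the limit of counting: Adora2a had 18, 10, 11 and 12 counts in the same order of libraries and Adora3 had 0 throughout.

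Genes that release nucleotides or act on them outside the cell had 5 of 8 members lower and 2 higher in TSA plus phenamil over TSA, with a median of -0.52 beside 0.001 over all genes, of which 17.1% were lower and 16.6% higher. Gja1, the gap junction gene connexin 43, had 82.8 CPM with TSA plus phenamil, 158 CPM with TSA, 136 CPM in the senescent control and 111 CPM in the young control. This is the order of libraries seen for Aqp1, Slc29a1 and Slc6a4, and Gja1 stood at 0.524 (0.482 to 0.570) in TSA plus phenamil over TSA. Enpp1, which makes pyrophosphate from ATP, had 431 CPM with TSA plus phenamil, 521 CPM with TSA, 617 CPM in the senescent control and 467 CPM in the young control, a different order. Enpp3, of the same family, stood at 2.45 (1.64 to 3.75) in TSA over young control.

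The Gq pathway that P2ry6 uses had 3 of 11 genes higher and 1 lower in TSA plus phenamil over TSA, with a median of 0.17, where 16.6% of all genes were higher and 17.1% lower. In TSA over senescent control 2 were higher and 2 lower, with a median of -0.11, shares near the 15.7% and 14.7% of all genes. Plcb4, a phospholipase C of this pathway, had 25.4 CPM with TSA plus phenamil, 10.99 CPM with TSA, 20.8 CPM in the senescent control and 24.6 CPM in the young control. Like P2ry6 it was lowest in the TSA library, at 0.529 (0.417 to 0.667) of the senescent control. Gnaq, the G protein subunit itself, stood at 1.10 (1.03 to 1.16) in that pair. Genes of cell volume and osmotic stress had 4 of 16 higher and 3 lower in TSA plus phenamil over TSA, with a median of -0.08, and the share lower was near the 17.1% of all genes, of which 16.6% were higher. In TSA over senescent control 6 were higher and 2 lower, beside 15.7% and 14.7% of all genes.

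**Figure D4:**
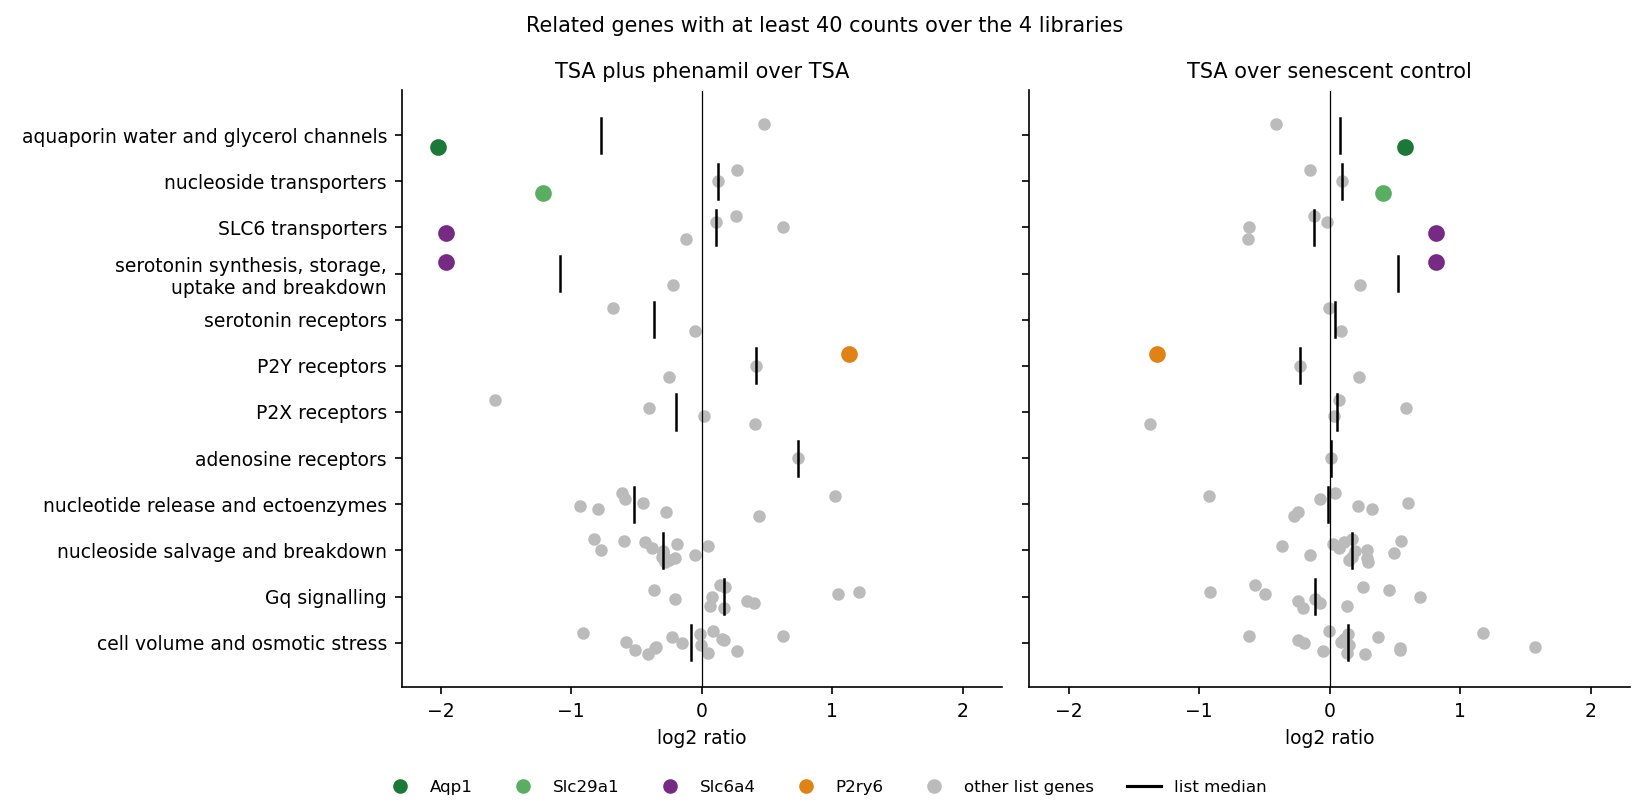
Log2 ratio (horizontal axis) of every compared gene in 12 lists of related genes, in TSA plus phenamil over TSA (left) and TSA over senescent control (right), with the 4 genes coloured, other genes grey and each list's median as a vertical bar. Aqp1 at -2.02, Slc6a4 at -1.96 and Slc29a1 at -1.22 lie at the left edge of their families in the left panel, and P2ry6 lies left of the other P2Y genes, at -1.32, in the right panel.

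In TSA plus phenamil over TSA, the compared genes next to the 4 in the reference annotation did not show ratios of their size. Aqp1 lies on chromosome 4, Slc29a1 on chromosome 9, Slc6a4 on chromosome 10 and P2ry6 on chromosome 1, and of the 2 nearest listed genes on each side, 8 had enough counts. Beside Slc29a1, the chaperone gene Hsp90ab1 stood at 0.955 (0.927 to 0.984) and Slc35b2 at 0.974 (0.845 to 1.12) in TSA plus phenamil over TSA. Beside Slc6a4, Blmh stood at 1.06 (0.953 to 1.18) and Nsrp1 at 1.04 (0.964 to 1.13).

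Mindy4, beside Aqp1, stood at 0.769 (0.533 to 1.11) in TSA plus phenamil over TSA. In TSA over senescent control Mindy4 was higher at 1.52 (1.05 to 2.23), close to the 1.49 of Aqp1. The other neighbours of Aqp1, namely Inmt, Ghrhr and LOC102551107, had 2, 0 and 1 counts in all. P2ry6 lies next to its relative P2ry2, which stood at 0.841 (0.710 to 0.995) in TSA plus phenamil over TSA. The other neighbours of P2ry6, Arhgef17 at 1.24 (1.15 to 1.35) and Fchsd2 at 1.22 (1.03 to 1.44), were higher, as P2ry6 was, with smaller ratios.

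**Figure D5:**
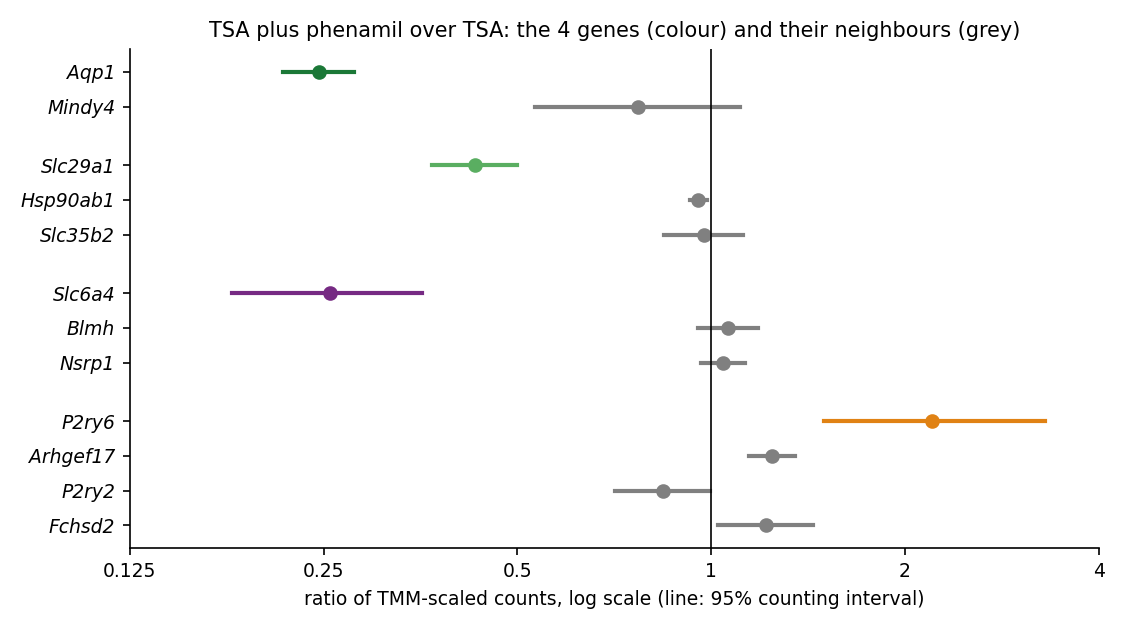
Ratio of scaled counts in TSA plus phenamil over TSA (horizontal log axis, 95% counting intervals as lines) for the 4 genes (coloured) and those of their nearest annotated neighbours with at least 40 counts (grey). Every neighbour lies between 0.769 and 1.24, while Aqp1 lies at 0.246 and P2ry6 at 2.20.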

How the data were processed

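Per the labels, total RNA was extracted with TRIzol, and 3' tag libraries (QuantSeq FWD) were read as single ends of 100 bases. The submitters' processing notes name STAR 2.7.10b, HTSeq 2.0.2 and build mRatBN7.2; nothing read here states the annotation, the strand setting or the handling of duplicates. The authors deposited raw counts per gene, per the file headers. The deposited log2 values equal log2(count/divisor + 1), with 1 divisor per library, within 0.000532.

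The counts were scaled by TMM over genes with at least 40 counts (edgeR 4.0.16, R 4.3.3). With 1 library per group no dispersion can be estimated, so edgeR's quasi-likelihood test was not used. Ratios carry exact Clopper-Pearson 95% intervals (scipy 1.17.1), levels exact Poisson ones, both for counting error only, as no molecular identifiers are mentioned and reads need not be independent molecules. Log2 ratios and profile distances used a prior count of 0.5. The interval was tested on counts simulated with Poisson error alone, which such an interval covers by construction. That simulation held no replicate spread and no duplicate reads, so it cannot speak to either. Of the identifiers, 93.1% were found in the GRCr8 gene table, used for names and neighbours. Named beyond the 4 genes were, per list, the most abundant gene and those whose interval lay beyond 1.5-fold in a pair, plus nearest patterns and neighbours; other list genes were added after their values were seen. Members and lists were chosen with earlier results of these data known. Alternatives were total counts, DESeq2 1.42.0 size factors, TMM leaving out ribosomal protein and mitochondrial genes, other filters, a 1.5-fold rule, a prior count of 2 and the deposited log2 values.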

Additional observations from a re-analysis of the deposited data

How the results depend on the processing

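The 24 ratios of the 4 genes stayed within their main counting intervals under 6 alternatives and moved by at most 3.74%. The alternatives were DESeq2 size factors, total counts, TMM on 3 other gene sets and the deposited log2 values. All 6 only rescale whole libraries and leave the counts of each gene as they were. The deposited values use divisors at 0.9986 to 1.0010 of the TMM sizes and so nearly repeat the main scaling. No call of higher or lower differed under the other alternatives, while none was made from the deposited values. Total counts shifted log2 ratios by up to 0.05. Of the 4 genes, those past the size rule numbered, with a 1.5-fold rule in place of 2-fold, 1 in TSA over senescent control, 2 in TSA plus phenamil over senescent control and 3 in TSA over young control, against 0, 1 and 1. Over all genes, in the order of the pairs in the text, 33, 20, 20, 50, 87 and 28 were past 2-fold; with no filter 106, 60, 77, 94, 156 and 116; with at least 200 counts 5, 1, 2, 17, 28 and 1; and by the 1.5-fold rule 165, 131, 133, 223, 387 and 128. Slc6a4 and P2ry6 have 400 and 314 counts in all, so both passed the filter of 200. Of the 12 nearest genes in pattern 6 remained when genes with 40 counts were admitted, where more genes compete, and 11 with a prior count of 2. Depth limits P2ry6 most, with 39 counts in the TSA library, and no alternative replaces the replicates that the design lacks. No paired analysis was possible because each condition had 1 library.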

Other observations

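Of the 596 genes with the order TSA, senescent control, young control, TSA plus phenamil from high to low, 12 were past 2-fold in TSA plus phenamil over TSA. Besides Aqp1, Slc29a1, Slc6a4, Krt7, Areg and Trnap-agg_18 they were the calcium-activated potassium channel gene Kcnn4, the receptor tyrosine kinase gene Ret, the complement receptor gene C5ar2, the leukocyte sialophorin gene Spn and 2 unnamed genes, all chosen after their values were seen. Kcnn4 had 9 counts with TSA plus phenamil, 49 with TSA, 21 in the senescent control and 15 in the young control, and stood at 0.174 (0.0749 to 0.357) in that pair. Spn had 19, 68, 24 and 22 counts in that order and stood at 0.264 (0.150 to 0.444). Ret and C5ar2 had 3 counts each with TSA plus phenamil, so that their ratios are loose: 0.0977 (0.0191 to 0.315) for Ret and 0.135 (0.0258 to 0.452) for C5ar2.

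Slc1a2, a glutamate transporter gene, was the solute carrier past 2-fold higher against the young control, with 26 counts with TSA plus phenamil, 20 with TSA and 3 in the young control. Slc1a2 thus stood at 9.16 (2.81 to 47.3) in TSA plus phenamil over young control and at 7.46 (2.21 to 39.2) in TSA over young control, from few counts.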
